A study of Homo sapiens with 3 samples.

Results

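Hedgehog pathway components were examined in Rh-30 cells, an established alveolar rhabdomyosarcoma (ARMS) line with the PAX3-FOXO1 fusion. The 9 genes were PTCH1, SMO, SUFU, GLI2, GLI3, HHIP, BOC, CDON and GAS1, of 19775 genes measured. They were taken by symbol, through all 29 probe sets that the platform annotation pairs with these names and with no other gene. The cells had been transfected with siPF (labelled siPAX3-FOXO1 and designed against the fusion junction), with siB7-H3 (against CD276, the gene of B7-H3) or with siCont, each at 5 nM. RNA was taken after 24 h and hybridized to 1 Affymetrix U133 Plus 2.0 array per condition. Each target was knocked down with 1 siRNA sequence. As each condition had 1 array, no difference below has a replicate check, no test between conditions could be made, and every difference lies between 2 arrays. In RNA of whole cultures, fewer cells of a type and less RNA per cell cannot be told apart.

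Hedgehog ligands are secreted proteins that bind Patched 1 (PTCH1), a membrane protein which otherwise holds Smoothened (SMO) inactive. Once released, SMO signals at the primary cilium and frees GLI2 and GLI3, zinc finger transcription factors that are restrained by SUFU. PTCH1, HHIP and GLI1 are themselves switched on by GLI proteins, and PTCH1 and HHIP dampen the signal, which forms a negative feedback. The pathway takes part in the patterning of embryonic muscle, and mice with a defective copy of Ptch1 can develop rhabdomyosarcoma.

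Values are linear intensities, and each was converted to log2 before siCont was subtracted. Where a gene had several probe sets, the one brightest on average in log2 stood for it. Past 2-fold means a log2 difference no nearer to 0 than 1 or -1. The level rule asks that at least 1 of the 2 arrays compared reaches its 60th percentile, which was 137 in siPF, 134 in siB7-H3 and 132 in siCont. Of the siRNA targets, CD276 was lower in siB7-H3 and FOXO1 in siPF, whereas the brightest PAX3 probe set differed little. CD276 had an intensity of 1381 in siPF and 362 in siB7-H3, against 1486 in siCont, and FOXO1, the fusion partner of PAX3, had 249 in siPF and 650.0 in siB7-H3, against 678 in siCont. PAX3 had 329 in siPF and 398 in siB7-H3, against 381 in siCont (231666_at), a log2 difference of -0.21 in siPF, and the dim PAX3 probe set 207679_at was higher in siPF, with 69.9 in siPF and 48.4 in siB7-H3, against 24.5 in siCont. Of 12 muscle lineage and ARMS markers, 9 reached the 60th percentile in siPF, 10 in siB7-H3 and 9 in siCont, while the ARMS markers TFAP2B and CDH3 were at most 35.5 on every array. Of 9 measured markers of other cell types, PECAM1 was the 1 marker that reached it, on all 3 arrays. Over all levels, the lowest intensity of the muscle list was 3.61 in siPF, 3.55 in siB7-H3 and 5.61 in siCont, and the highest was 8688 in siPF, 13050 in siB7-H3 and 11470 in siCont.

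PTCH1 and HHIP, the feedback genes, are shown here by the 250 bases before a transcription start, since the pathway is known to act on them through GLI proteins. PTCH1 has 5 such windows, and the 1 shown is the one with an exact match to the motif searched. The sequences are those of RefSeq on GRCh38.p14 and belong to the reference, not to Rh-30 cells. Both strands were searched for the GLI binding motif GACCACCCA, whose reverse complement is TGGGTGGTC, and an exact match is in capitals. The PTCH1 window lies on the minus strand at chr9:95509267-95509516 and the HHIP window on the plus strand at chr4:144645906-144646155.
PTCH1: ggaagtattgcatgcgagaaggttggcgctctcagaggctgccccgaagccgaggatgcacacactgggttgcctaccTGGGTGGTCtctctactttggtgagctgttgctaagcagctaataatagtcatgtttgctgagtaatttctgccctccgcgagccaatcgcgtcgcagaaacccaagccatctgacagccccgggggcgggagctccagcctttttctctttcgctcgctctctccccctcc
HHIP: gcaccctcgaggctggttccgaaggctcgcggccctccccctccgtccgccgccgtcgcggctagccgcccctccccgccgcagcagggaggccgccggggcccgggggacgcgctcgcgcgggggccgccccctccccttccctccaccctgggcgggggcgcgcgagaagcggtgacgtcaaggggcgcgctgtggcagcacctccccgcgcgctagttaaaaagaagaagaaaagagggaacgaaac
In the PTCH1 window the match covers the bases from 172 to 164 before the start. The motif was found in 70 of 35116 promoter windows of the same length, or 0.199%. Of 16 windows for 8 of the 9 genes, this was the 1 exact match, and no other motif was searched. At most 1 mismatch was found in 2 of the 16 windows, both of PTCH1, against 5.81% of all windows. Of the 4 PTCH1 windows with no exact match, 1 had a stretch with 1 mismatch and 3 had none with fewer than 3. The HHIP window held no stretch with fewer than 3 mismatches. A match describes these letters and not a site in use, and no binding was measured on these arrays.

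HHIP, a membrane protein that binds Hedgehog ligands and keeps them from PTCH1, was higher in siPF at all 4 of its probe sets. The probe set that stands for the gene (1556037_s_at) had an intensity of 4066 in siPF and 2905 in siB7-H3, against 2040 in siCont, and so fell just short of 2-fold, with a log2 difference of 0.99 in siPF and 0.51 in siB7-H3. Probe set 230135_at had 3522 in siPF and 3037 in siB7-H3, against 1537 in siCont. It was past 2-fold in siPF, with a log2 difference of 1.20, and just short of it in siB7-H3, with 0.98. Probe set 237466_s_at had 1893 in siPF and 1285 in siB7-H3, against 1029 in siCont, log2 differences of 0.88 and 0.32. At the dimmest, 223775_at, the intensity was 664 in siPF and 324 in siB7-H3, against 295 in siCont. This probe set was 2.25 times siCont in siPF and 1.10 times in siB7-H3. On all 4 probe sets siPF was thus the highest array, siB7-H3 lay between and siCont was the lowest. The distance of siB7-H3 from siCont varied among the probe sets, from a log2 difference of 0.14 to 0.98, more than that of siPF, which ranged from 0.88 to 1.20. When all genes were ordered by level and divided into 10 equal classes, the genes of the class of HHIP had log2 differences that spread across genes with an SD of 0.31 in siPF and 0.28 in siB7-H3. Of these genes, 1.11% were past 2-fold in siPF and 0.809% in siB7-H3.

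**Figure D1:**
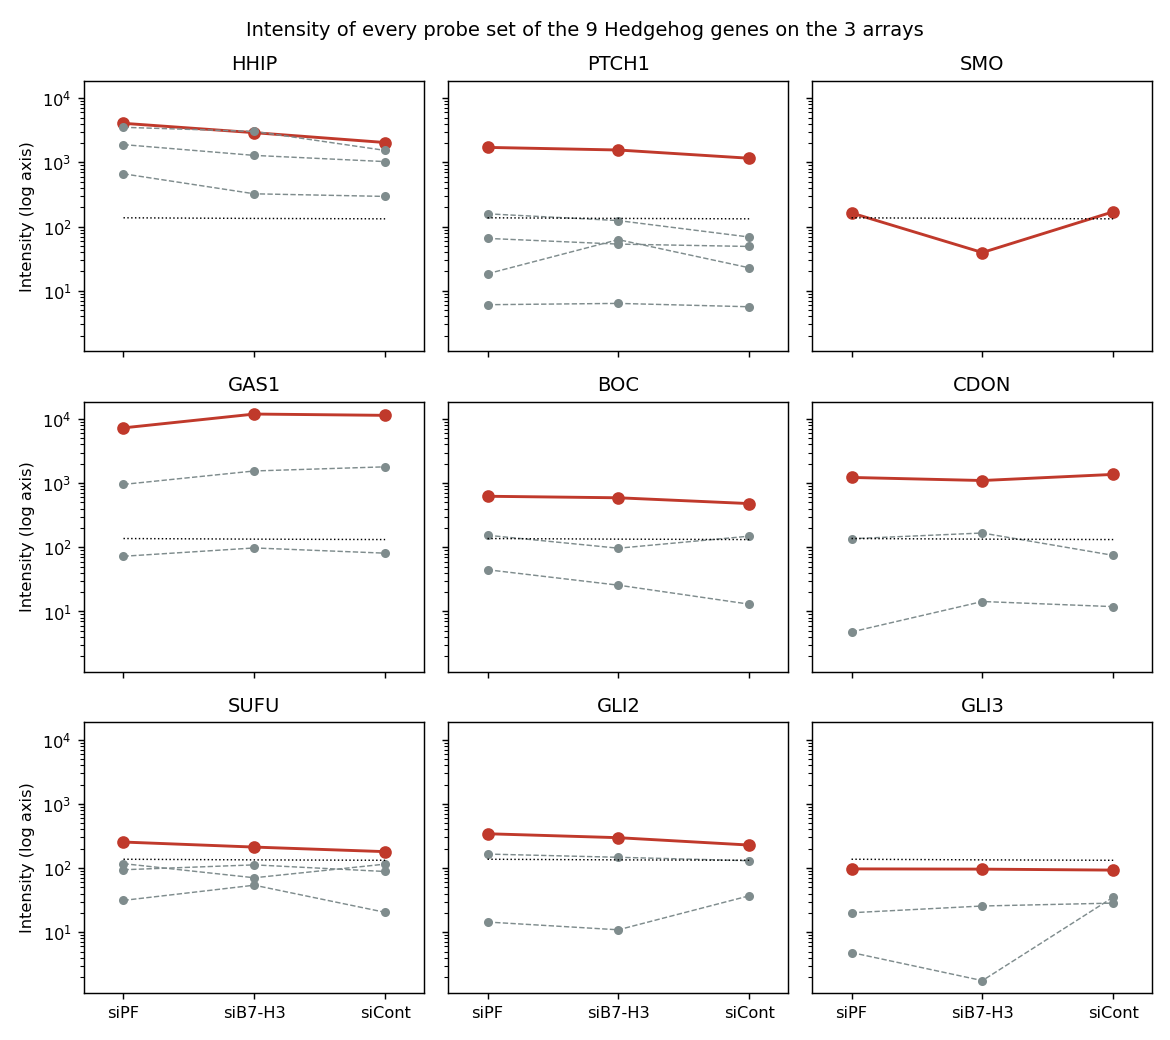
Intensity (log axis) of each of the 29 probe sets of the 9 genes on the siPF, siB7-H3 and siCont arrays, 1 point per array. Red solid lines are the probe sets that stand for the gene, grey dashed lines the other probe sets, and the dotted line is the 60th percentile of each array. All 4 HHIP probe sets are highest in siPF, the 2 brightest GAS1 probe sets are lowest in siPF, and SMO is lowest in siB7-H3.

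PTCH1, the receptor, was higher on both knockdown arrays, by less than 2-fold at its brightest probe set. Probe set 209815_at had an intensity of 1713 in siPF and 1560 in siB7-H3, against 1161 in siCont, log2 differences of 0.56 and 0.43. The dimmer 209816_at gave 158 in siPF and 124 in siB7-H3, against 68.7 in siCont, and was past 2-fold in siPF, with 1.20, but not in siB7-H3, with 0.85. The order of the arrays was the same at both probe sets as for HHIP. The 3 remaining PTCH1 probe sets were at most 65.4 on every array. Of these, 1555520_at had 65.4 in siPF and 53.3 in siB7-H3, against 49.0 in siCont, and 208522_s_at stayed between 5.63 and 6.35. Probe set 238754_at had 18.4 in siPF and 62.6 in siB7-H3, against 22.8 in siCont, and so had its high value on the siB7-H3 array. GLI1, the GLI factor whose own gene responds to the pathway, had 702 in siPF and 604 in siB7-H3, against 419 in siCont, log2 differences of 0.74 and 0.53 at its 1 probe set. HHIP, PTCH1 and GLI1 therefore had the same order of arrays at the probe sets that stand for them. This order was not particular to them, since the probe sets that stand for BOC, SUFU, GLI2 and GLI3 had it as well. For GLI3 the log2 differences were only 0.06 in siPF and 0.05 in siB7-H3, at a probe set under the level rule. The share of all genes with this order was not counted, so how common it is was not tested. Both comparisons share the siCont array.

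Among the co-receptors, which bind ligand together with PTCH1, GAS1 was lower in siPF. At their brightest probe sets, BOC and CDON lay closer to siCont than GAS1 did in siPF, but not in siB7-H3. GAS1, a GPI-anchored protein, had an intensity of 7261 in siPF and 11920 in siB7-H3, against 11380 in siCont (204457_s_at), a log2 difference of -0.65 in siPF and 0.07 in siB7-H3. Probe set 204456_s_at gave 955 in siPF and 1547 in siB7-H3, against 1794 in siCont, a log2 difference of -0.91 in siPF and -0.21 in siB7-H3. At both probe sets siPF was the lowest array, and the other 2 arrays lay closer together. The dim 228187_at gave 72.5 in siPF and 97.7 in siB7-H3, against 81.0 in siCont. GAS1 lay in the brightest of the 10 classes, where the SD across genes was 0.27 in siPF and 0.24 in siB7-H3, and 0.607% of the genes were past 2-fold in siPF and 0.809% in siB7-H3.

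BOC, a cell surface protein with immunoglobulin and fibronectin repeats, had 624 in siPF and 591 in siB7-H3, against 480 in siCont (225990_at), log2 differences of 0.38 and 0.30. Probe set 230035_at had 154 in siPF and 96.8 in siB7-H3, against 149 in siCont, so here siB7-H3 was the low array. The dim 224184_s_at, with 44.7 in siPF and 25.7 in siB7-H3 against 13.0 in siCont, was past 2-fold in siPF, with 1.78. CDON, a related protein of the same build that also promotes myogenic differentiation, had 1226 in siPF and 1098 in siB7-H3, against 1367 in siCont (227526_at), log2 differences of -0.16 and -0.32. At 207230_at the direction was the opposite, with 136 in siPF and 167 in siB7-H3, against 74.9 in siCont, so that siB7-H3 was 2.23 times siCont. The remaining CDON probe set, 1563677_at, was at most 14.3 on every array. The probe sets of CDON thus gave no common direction.

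SMO, the signal transducer under PTCH1, was the 1 gene of the 9 past 2-fold at the probe set that stands for it. Its only probe set, 218629_at, had an intensity of 163 in siPF and 39.4 in siB7-H3, against 170 in siCont, a log2 difference of -0.06 in siPF and -2.11 in siB7-H3. The siB7-H3 array was the low one, and siPF and siCont lay side by side. The siCont value is close to the level limit of 132, and no second probe set could be compared. Genes of its level class had a median of 94.7, a spread across genes (SD) of 0.56 in siB7-H3, and 7.13% of them were past 2-fold there. SMO was compared with 7910 genes at or over the 60th percentile of mean level, a limit above its own geometric mean of 103. The closest in both log2 differences was CD276 itself, by its brightest probe set, at a Euclidean distance of 0.088. CD276 probe set 1552914_a_at, also over the level rule, was far from SMO, with -0.40 in siPF and -5.34 in siB7-H3. The dim CD276 probe set 1559583_at lay above siCont on both arrays. Next came TOMM22, a mitochondrial import receptor, at 0.27, and PIGU, a factor in GPI anchor attachment, at 0.42. TOMM22 had 4814 in siPF and 1209 in siB7-H3, against 4493 in siCont, and PIGU had 1772 in siPF and 367 in siB7-H3, against 1412 in siCont. This likeness rests on 3 arrays, that is on 2 differences per gene.

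SUFU and GLI2 were higher on both knockdown arrays, by less than 2-fold, at their brightest probe sets, and GLI3 was dim at all 3 of its probe sets. SUFU and GLI2 lay in the same class of level, where the SD across genes was 0.45 in siPF and 0.38 in siB7-H3. SUFU, which holds GLI proteins in the cytoplasm, had 254 in siPF and 212 in siB7-H3, against 180 in siCont (222749_at), log2 differences of 0.49 and 0.23. Its other 3 probe sets stayed under the level rule. Of these, 224203_at had 117 in siPF and 70.5 in siB7-H3, against 115 in siCont, and 224201_s_at had 94.0 in siPF and 112 in siB7-H3, against 88.3 in siCont. The dimmest, 224202_at, had 31.3 in siPF and 54.0 in siB7-H3, against 20.4 in siCont, 2.64 times siCont in siB7-H3. For siB7-H3 the SUFU probe sets therefore went both ways.

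GLI2, the main activating GLI factor, had 342 in siPF and 297 in siB7-H3, against 228 in siCont (228537_at), log2 differences of 0.58 and 0.38. Probe set 207034_s_at had 165 in siPF and 147 in siB7-H3, against 130 in siCont, the same order of arrays as at 228537_at. The dim 208057_s_at went the other way, with 14.4 in siPF and 10.9 in siB7-H3, against 36.9 in siCont, and was past 2-fold lower in both comparisons. GLI3, which in the absence of ligand is processed to a repressor, had 97.0 in siPF and 96.1 in siB7-H3, against 92.8 in siCont (205201_at), within a log2 difference of 0.07 of siCont on both arrays. GLI3 was the 1 gene of the 9 that did not pass the level rule. At 227376_at it had 20.1 in siPF and 25.6 in siB7-H3, against 28.4 in siCont, log2 differences of -0.49 and -0.15. At 1569342_at it had 4.82 in siPF and 1.76 in siB7-H3, against 35.1 in siCont, a log2 difference of -2.86 in siPF and -4.32 in siB7-H3, at levels where 2-fold differences were common. Of the 3 GLI3 probe sets, 2 were thus below siCont on both knockdown arrays, and the brightest was slightly above it. Of the dimmest of the 10 classes, whose median was 5.52, 53.4% were past 2-fold in siPF and 49.4% in siB7-H3.

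**Figure D2:**
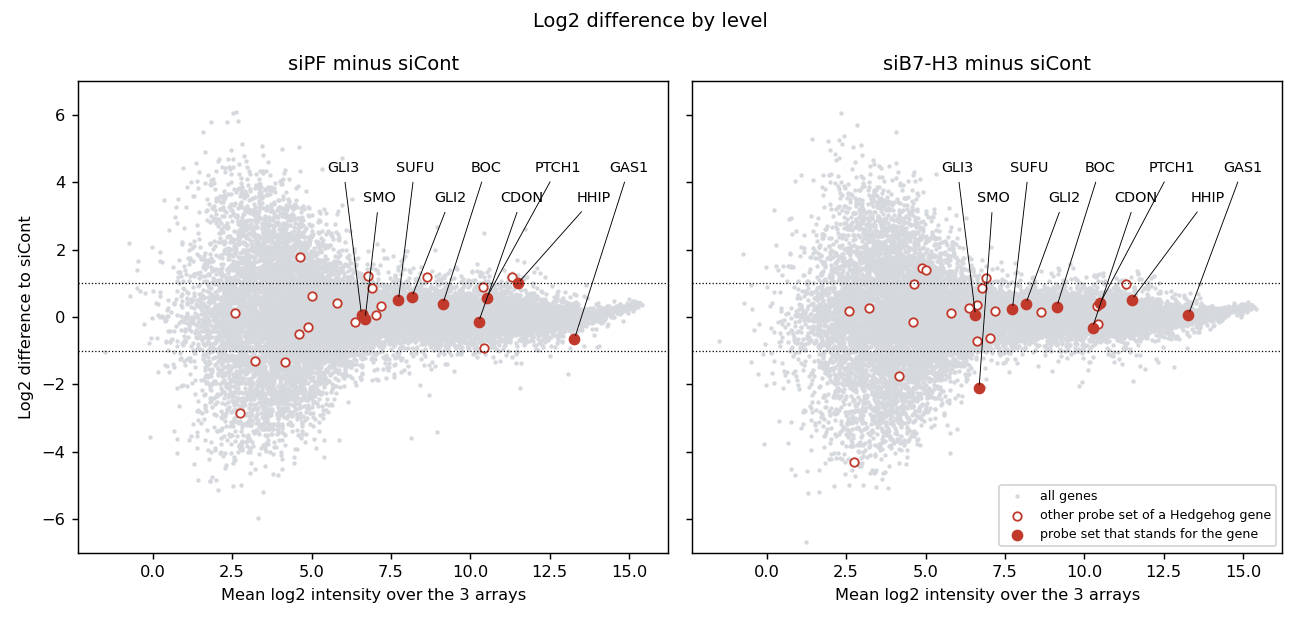
Log2 difference to siCont (vertical axis) against mean log2 intensity over the 3 arrays (horizontal axis), for siPF on the left and siB7-H3 on the right. Grey points are all 19775 genes, filled red points the probe sets that stand for the 9 genes, open red points their other probe sets, and dotted lines mark 2-fold. HHIP lies at 0.99 in siPF and SMO at -2.11 in siB7-H3. The open points farthest from 0 lie at low levels, whereas 2 open points of HHIP lie past 2-fold in siPF at high levels.

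Counted over the probe sets that stand for them, 0 of the 9 genes were past 2-fold in siPF, where 9.72% of all genes were higher and 9.39% lower by this measure. In siB7-H3 1 of the 9 was past 2-fold lower (SMO) and 0 were higher, against 9.45% and 8.75% of all genes. Under the level rule, which 8 of the 9 passed in each comparison, 1.38% of all genes were higher and 1.12% lower in siPF, and 0.792% and 0.83% in siB7-H3, with the same 0 and 1 of the 9 past 2-fold. Of the 9 genes, 6 were above siCont in siPF and 7 in siB7-H3, against 51.6% and 50.5% of all genes. Their median log2 difference was 0.38 in siPF and 0.23 in siB7-H3, against medians of 0.02 and 0.00446 over all genes.
Over all 29 probe sets, siPF had 4 past 2-fold higher and 3 lower, and siB7-H3 had 3 higher and 3 lower. Of all probe sets named with 1 gene, 10.7% were higher and 10.3% lower in siPF, and 9.82% and 10.5% in siB7-H3. The 4 higher probe sets in siPF were 2 of HHIP, 1 of PTCH1 and 1 of BOC, and the 3 lower ones, of GLI2, GLI3 and CDON, were all at most 36.9 on every array. In siB7-H3 the 3 higher ones were of PTCH1, SUFU and CDON and the 3 lower ones of SMO, GLI2 and GLI3. Of the 12 muscle lineage and ARMS markers, 6 lay above siCont and 6 below it in siPF, with a median log2 difference of 0.05, and 9 lay above and 3 below in siB7-H3, with a median of 0.28. MYOG, a muscle differentiation gene, was the 1 marker of the 12 past 2-fold on either array, with 3386 in siPF and 1269 in siB7-H3, against 605 in siCont. MYOD1, a muscle lineage factor, had 8688 in siPF and 13050 in siB7-H3, against 11470 in siCont, and MYF5, a related factor, had 213 in siPF and 342 in siB7-H3, against 415 in siCont. The part of these markers in the values of HHIP and PTCH1 was not tested.

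A list of 76 other genes of the pathway was examined beside the 9, of which 70 had a probe set named with 1 gene. Past 2-fold, 4 of the 70 lay higher and 4 lower in siPF, or 5.71% each, and 2 lay higher and 4 lower in siB7-H3, or 2.86% and 5.71%. These shares lay below those of all genes given above, and a larger part of the 70 was bright enough for that rule, namely 50 in siPF and 51 in siB7-H3, against 10500 and 10481 of all 19775 genes. Of those bright enough, 2 were past 2-fold lower in siPF, or 4.0%, against 1.12% of all genes under the level rule, and 0 were higher, against 1.38%. In siB7-H3 0 were past 2-fold in either direction, against 0.792% of all genes higher and 0.83% lower. Over these 70 genes the log2 differences had a median of 0.08 in siPF and 0.09 in siB7-H3.
The ligands were dim. SHH had 80.4 in siPF and 78.5 in siB7-H3, against 51.6 in siCont, DHH had 36.5 in siPF and 59.3 in siB7-H3, against 44.4 in siCont, and IHH had 11.2 in siPF and 21.8 in siB7-H3, against 15.7 in siCont. None of the 3 ligands passed the level rule. Of 8 genes of ligand release and transport, 2 passed it, DISP1 and HHAT. DISP1, which releases lipid-modified ligand from the cell, had 516 in siPF and 935 in siB7-H3, against 1077 in siCont, and was past 2-fold lower in siPF, with a log2 difference of -1.06. HHAT, which attaches palmitate to the ligand, had 614 in siPF and 301 in siB7-H3, against 584 in siCont, short of 2-fold with -0.96 in siB7-H3. Each gene thus had its low value on a different array.
Of all genes under the level rule, 52.5% lay above siCont in siPF and 52.8% in siB7-H3. Of 11 measured genes listed as partners of SMO or as negative regulators, 9 passed the level rule in siPF, 6 above and 3 below siCont. ARRB1, a beta-arrestin that acts with many receptors including SMO, was the 1 gene of these past 2-fold. It had 1477 in siPF and 3264 in siB7-H3, against 3351 in siCont (43511_s_at), so the low value was on the siPF array, with a log2 difference of -1.18, and siB7-H3 differed by -0.04. All 7 probe sets of ARRB1 were lower in siPF, with log2 differences of -1.43 to -0.81. All 15 kinases and degradation factors passed the level rule, 8 above and 7 below siCont in each comparison. None was past 2-fold at the probe set that stands for it. The largest difference at those probe sets was that of ULK3, a GLI kinase, with 578 in siPF and 585 in siB7-H3, against 933 in siCont. Some other probe sets over the level rule were past 2-fold. These were DYRK2 202970_at with -1.705 and CSNK1E 222015_at with -1.08 in siPF, and CSNK1A1 243338_at with 1.18 in siB7-H3. The brightest DYRK2 probe set had 0.24 in siPF. Of 15 measured genes of the cilium and of GLI trafficking, the level rule was met by 12 in siPF and by 13 in siB7-H3. Their medians over all levels were 0.01 in siPF and -0.12 in siB7-H3, and none of those that passed was past 2-fold.
Of 17 measured genes known to be switched on by GLI in some tissue, 11 met the level rule each time. In siPF 7 of the 11 lay above siCont and 4 below, where 52.5% of all genes under the level rule lay above. In siB7-H3 9 lay above and 2 below, where 52.8% of all genes under that rule lay above. None of the 11 was past 2-fold. CCND2, a D cyclin, had 27240 in siPF and 24500 in siB7-H3, against 19550 in siCont, whereas CCND1 had 2823 in siPF and 3935 in siB7-H3, against 3816 in siCont. FOXF1, a forkhead factor, had 314 in siPF, and 468 on both the siB7-H3 and the siCont array. Over the 17 genes, dim ones included, the log2 differences had a median of 0.17 in siPF and 0.21 in siB7-H3. The medians over all genes were 0.02 and 0.00446.

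**Figure D3:**
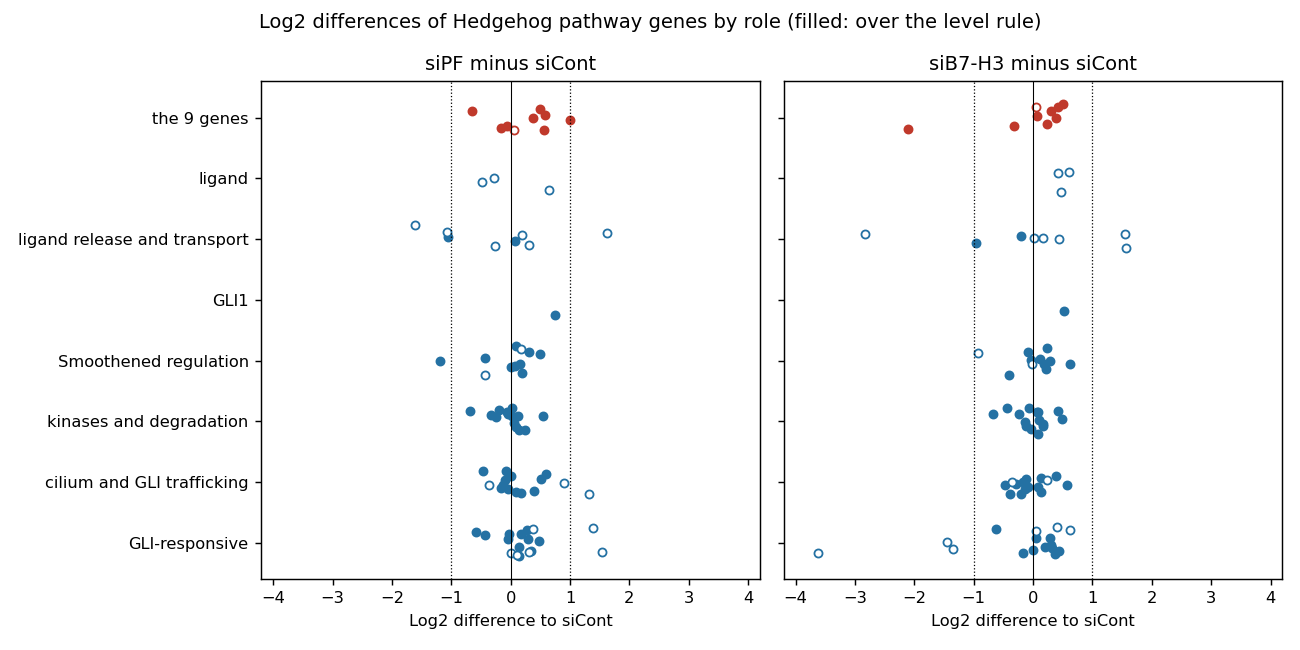
Log2 difference to siCont (horizontal axis) of the 9 genes (red) and of 70 other Hedgehog pathway genes (blue) by role, 1 point per gene, for siPF on the left and siB7-H3 on the right. Filled points passed the level rule, open points did not, dotted lines mark 2-fold, and the vertical scatter within a role has no meaning. Past 2-fold, the filled points are DISP1 and ARRB1 in siPF and SMO in siB7-H3.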

How the data were processed

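RNA of Rh-30 cells was measured on 3 arrays, 1 per condition. Per probe set and array the authors deposited 1 intensity, unlogged, from Affymetrix Expression Console 1.4.1. How probes were summarized is not given in the sources used here. With the 2% of probe sets at either end trimmed, each array averaged 500.1. The top intensity was 49602 in siPF, 46400 in siB7-H3 and 37580 in siCont. The number of arrays limits the precision.
Of 54675 probe sets, 41091 were named with 1 gene by the platform annotation. The 62 array controls were left out of the genes and of the percentiles. They were kept in the trimmed average, the top intensity and quantile normalization. The code was tested on simulated data with Python 3.11.15, numpy 2.4.6 and pandas 2.3.3.
The 9 genes, the list of other Hedgehog genes and the alternatives were chosen with earlier results of these data known. Named were all 9 genes, other Hedgehog genes past 2-fold under the level rule, the ligands, GLI1, the siRNA targets and the 3 nearest genes. HHAT, ULK3, CCND1, CCND2 and FOXF1 were chosen after their values were seen, as were the named markers and the PTCH1 and HHIP windows. Probe sets with the suffix _s_at can bind several transcripts.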

Additional observations from a re-analysis of the deposited data

How the results depend on the processing

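With 1 array per condition, no replicate could be left out and no paired analysis was possible because no condition had a second array. HHIP lies so close to 2-fold in siPF that the count of 0 of the 9 genes became 1 (HHIP) with the median over all probe sets of a gene, with probe sets that can bind several transcripts left out, and with quantile normalization. The HHIP log2 difference was 1.08 and 1.20 under the first 2 of these, and at the limit itself under quantile normalization. In siB7-H3 the count of 1 (SMO) became 0 with values raised to the 60th percentile of the array, where SMO had -0.34. The siCont value of SMO lies less than 2-fold above that floor, so this outcome was fixed by construction. The median log2 difference of the 9 genes moved by less than 0.1 under every alternative in both comparisons. The count of other Hedgehog genes past 2-fold, 8 in siPF and 6 in siB7-H3, rested on dim genes except for 2 in siPF. In siPF it was 3 with 16 added before log2, and 2 with the floor or under the level rule. It was 4 in siPF without probe sets that can bind several transcripts, a setting that measured 60 of the 70 genes. That setting also left out the brightest ARRB1 probe set, so this fall does not rest on dim genes alone. In siB7-H3 it was 3 with 16 added, and 0 with the floor or under the level rule. Of 40 comparisons at other probe sets of the 9 genes, 12 were past 2-fold where the probe set that stands for the gene was not.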
